A study of Mus musculus with 4 samples.

Results

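Small nucleolar RNAs (snoRNAs) and small Cajal body RNAs (scaRNAs) were examined in RNA-seq gene counts from mouse R1 embryonic stem cells (ESCs). Genes were chosen by name alone: every gene whose symbol begins with Snora (the H/ACA class), Snord (the C/D class) or Scarna. The mm9 annotation names 108 such genes, of which 102 are among the 48526 genes of the count files and 6 were not analysed here. These 102 comprised 34 H/ACA, 59 C/D and 9 scaRNA genes. Of them, 59 had at least 1 count in some library and 40 had enough counts to be tested, namely 12 H/ACA, 23 C/D and 5 scaRNA genes.

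C/D snoRNAs guide the methylation of ribose in ribosomal RNA, and H/ACA snoRNAs guide the conversion of uridine to pseudouridine. Each works by base pairing to its target inside a small ribonucleoprotein, with fibrillarin as the methyltransferase in C/D particles and dyskerin as the pseudouridine synthase in H/ACA particles. ScaRNAs carry the same boxes but act in Cajal bodies on the spliceosomal small nuclear RNAs. Most mammalian snoRNAs are cut out of introns of host genes, many of which encode ribosomal proteins or nucleolar factors, while a few, such as *Snord13* and *Snord118*, have promoters of their own.

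The series holds 2 libraries of unedited R1 ESCs (WT), an established mouse line, and 2 libraries of R1 ESCs in which the zinc finger gene *Zfp296* had been targeted with CRISPR/Cas9, from the knockout line named clone 2 (KO2). The sample labels give no further treatment or allele for either group. According to the paper, its R1 ESCs were grown in medium with foetal bovine serum, leukaemia inhibitory factor, PD0325901 and CHIR99021. The study used this line to ask how loss of ZFP296, a protein that binds the NuRD chromatin complex, changes gene expression. Because KO2 is 1 clone, effects of the edit and of the clone cannot be told apart.

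WT replicate 1 held 2829914 counts on genes and WT replicate 2 held 4334499, whereas KO2 was deeper, with 7470907 in replicate 1 and 7437294 in replicate 2. A count of 3 corresponded to between 0.402 and 1.06 per 1000000 counts on genes across these libraries, so the least abundant genes were measured with little precision in WT. The targeted gene went against the labels at the level of counts: *Zfp296* had 31 counts in each WT library but 416 and 282 in the KO2 libraries. It was higher in KO2 by 2.31 on the log2 scale (SE 0.29, adjusted p = 4.64e-05, edgeR quasi-likelihood test with Benjamini-Hochberg adjustment). A count over the whole gene reads neither a small edit nor the protein. The paper reports that its knockout clones were checked by mass spectrometry of proteins. KO2 below means the libraries labelled as such. The Y-linked gene *Ddx3y* had 0 and 1 counts in WT against 1979 and 2197 in KO2, a difference between the lines that the *Zfp296* label does not name. Levels are given as counts per 1000000 (CPM) after scaling with TMM, a method that evens out library composition, and sums over genes as unscaled CPM, relative to the counts on genes. All 7 ESC markers were present in every library, with a summed level of 5380 to 5690 CPM, whereas 6 feeder fibroblast markers summed to 0.802 to 3.54 CPM and 4 primitive endoderm markers to 3.07 to 5.22 CPM. Of 4 neural markers, 2 were analysed here: *Nes* lay at 86.5 to 120 CPM, and *Pax6* at 0 to 1.65 CPM.

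The sequences of 6 of the 7 C/D genes that differed between the lines are shown first, together with *Snord49a*, which lies in the same host gene as *Snord49b* and *Snord65*. All were read from the mm9 (NCBIM37) reference on the strand of the gene, 5′ to 3′. Capitals mark a C box (TGATGA) within the first 20 bases and a D box (CTGA) within the last 20 bases, the sites at which the core proteins assemble.
Snord49b: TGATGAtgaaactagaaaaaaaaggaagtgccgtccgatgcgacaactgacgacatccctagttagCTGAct
Snord49a: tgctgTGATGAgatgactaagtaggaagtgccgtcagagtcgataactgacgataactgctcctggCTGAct
Snord65: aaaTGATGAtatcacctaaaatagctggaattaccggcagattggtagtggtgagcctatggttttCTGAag
Snord110: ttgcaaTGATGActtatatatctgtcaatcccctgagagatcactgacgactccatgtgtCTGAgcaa
Snord83b: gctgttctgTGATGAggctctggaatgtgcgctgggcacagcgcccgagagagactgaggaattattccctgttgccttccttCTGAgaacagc
Snord17: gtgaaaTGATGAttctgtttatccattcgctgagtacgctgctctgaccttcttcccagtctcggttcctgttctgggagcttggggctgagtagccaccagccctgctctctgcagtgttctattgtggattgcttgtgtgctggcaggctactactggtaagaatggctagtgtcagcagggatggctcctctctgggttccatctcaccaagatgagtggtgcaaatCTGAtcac
Snord32a: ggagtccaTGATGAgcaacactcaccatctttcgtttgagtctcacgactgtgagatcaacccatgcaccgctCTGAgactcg

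*Snord49b* (chr11:62416581-62416652), *Snord49a* (chr11:62416952-62417023) and *Snord65* (chr11:62418017-62418088) lie in that order on the plus strand within 2410006H16Rik. *Snord49a* and *Snord49b* shared 53 identical bases in an alignment of 75 positions (70.7%), whereas *Snord65* was 55.1% and 56.4% identical to them. *Snord110* (chr2:130101242-130101309, plus strand) lies within *Nop56*, and *Snord83b* (chr15:79908928-79909021, minus strand) within *Rpl3*. *Snord17* (chr2:144091715-144091952, minus strand) lies within *Snx5*, and *Snord32a* (chr7:52382752-52382834, minus strand) within *Rpl13a*. *Snord13* has no host on its strand. Over all 59 C/D genes, 37 (62.7%) held the C box and 58 (98.3%) the D box in these windows, against 1.69% and 13.6% of the regions of the same length 1000 bases away. Only the strand of the gene was searched.

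For comparison, H/ACA genes and a scaRNA are shown that did not pass the test. *Snora28* (chr12:112779152-112779278, plus strand, within *Eif5*) and *Snora33* (chr10:23505153-23505281, minus strand, within *Rps12*) had the highest mean CPM of their class. *Scarna6* (chr1:89681131-89681395, plus strand, within *Atg16l1*) is among the scaRNAs with a C and a D box. Capitals mark the ACA triplet within the last 8 bases of the H/ACA genes, and the C and D boxes of *Scarna6*.
Snora28: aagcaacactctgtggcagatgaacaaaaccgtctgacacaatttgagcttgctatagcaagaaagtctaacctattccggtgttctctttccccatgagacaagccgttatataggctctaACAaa
Snora33: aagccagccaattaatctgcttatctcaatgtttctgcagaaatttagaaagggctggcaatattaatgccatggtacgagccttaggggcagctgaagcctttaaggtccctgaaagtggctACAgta
Scarna6: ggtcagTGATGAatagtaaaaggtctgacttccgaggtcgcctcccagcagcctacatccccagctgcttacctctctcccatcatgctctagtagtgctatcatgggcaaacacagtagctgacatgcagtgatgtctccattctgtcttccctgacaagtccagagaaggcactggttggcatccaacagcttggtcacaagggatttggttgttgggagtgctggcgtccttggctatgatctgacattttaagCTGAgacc

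The ACA triplet stood in this window in 32 of 34 H/ACA genes (94.1%), against 8.82% of the shifted regions. Among the 9 scaRNA genes, 4 held the C box, 5 the D box and 4 the ACA triplet, so this class mixes both architectures.

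Of the 102 genes, 43 were listed at 0 in all 4 libraries, 17 of them H/ACA and 26 C/D, while every scaRNA gene had counts. The genes at 0 and those with counts differed in their position in the annotation. Of the 43 genes at 0, 29 overlapped an exon of another gene on the same strand, compared to 5 of the 59 genes with counts. HTSeq, the program the authors used, leaves out a read that overlaps exons of more than 1 gene in its usual setting, so a 0 for such a gene may not measure its RNA. A near-identical copy elsewhere in the genome, at 95% identity or more over the length of the gene, was found for 6 of the genes at 0 and for 4 of the genes with counts. An exon overlap or a copy was present for 30 of the 43 genes at 0 and for 8 of the 59 others.

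**Figure D1:**
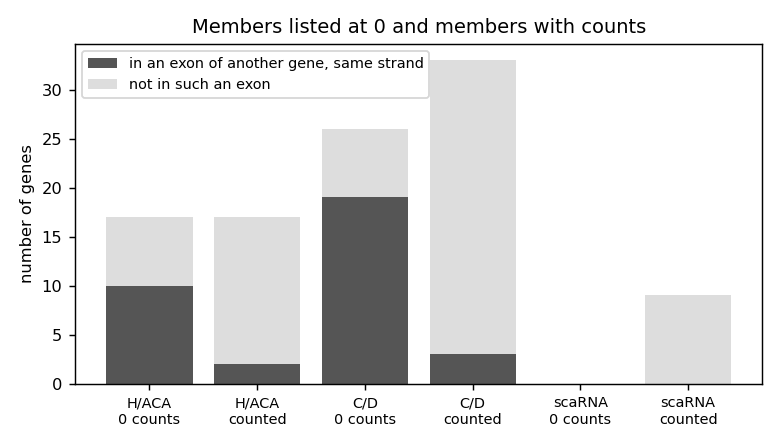
Number of genes (vertical axis) of each class listed at 0 in all 4 libraries or with counts in at least 1 of them. Dark bars are genes that overlap an exon of another gene on the same strand: 10 of 17 H/ACA and 19 of 26 C/D genes at 0, against 2 of 17 and 3 of 33 with counts.

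The 19 genes that had counts but were not tested were all sparse, with 2 to 37 counts over the 4 libraries (median 14). They are included in the class sums that follow but in no test.

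C/D genes were the most counted class and the class with the largest ratio between the lines. Summed over all 59 genes relative to the counts on genes, C/D counts came to 1292 and 1407 unscaled CPM in WT replicates 1 and 2, and 2893 and 1801 unscaled CPM in KO2 replicates 1 and 2. Both KO2 libraries lay above both WT libraries, and the ratio of means was 1.74. The KO2 libraries also differed from each other by 1.61-fold, which is more than the 1.28-fold between KO2 replicate 2 and WT replicate 2. With 2 libraries per group an exact permutation test cannot give a p below 0.33, so the sums were not tested.

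H/ACA counts came to 50.9 and 52.6 unscaled CPM in the WT libraries and to 74.4 and 43.7 unscaled CPM in the KO2 libraries. The KO2 libraries fell on either side of WT. The scaRNA sums were 195 and 224 unscaled CPM in WT and 249 and 193 unscaled CPM in KO2, and these groups overlapped as well. Ratios of the means were 1.14 for H/ACA and 1.05 for scaRNA. In all 3 classes KO2 replicate 1 was the highest library.

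A few genes carried most of the counts in a class. *Snord17* alone supplied 49.3% and 61.7% of the C/D counts in the WT libraries and 52.8% and 53.3% in the KO2 libraries. Without it the C/D sums were 655 and 539 unscaled CPM in WT and 1365 and 841 unscaled CPM in KO2, a ratio of 1.85. Without *Scarna2*, a long scaRNA known as a guide for U2 small nuclear RNA, the scaRNA sums were 80.2 and 85.8 unscaled CPM in WT and 130 and 99.2 unscaled CPM in KO2. The scaRNA groups thus overlapped with *Scarna2* and separated without it.

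**Figure D2:**
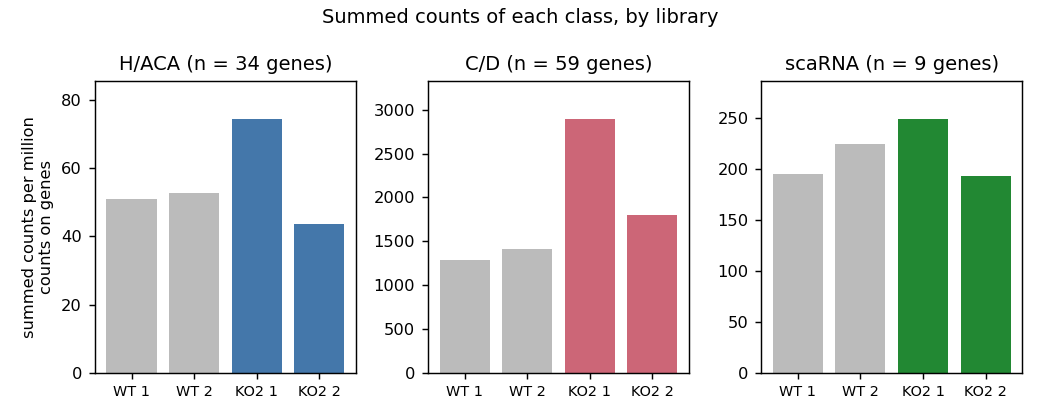
Summed counts in unscaled CPM, relative to counts on genes (vertical axes, each starting at 0 and each with its own scale) for all genes of the 3 classes in each library, with WT in grey. KO2 replicate 1 is the highest library in every panel, and only for C/D genes does KO2 replicate 2, at 1801 unscaled CPM, also lie above both WT libraries.

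Other short RNAs were compared because RNA isolation and the size of library fragments can move short genes as a group. Other genes of up to 200 exonic bases, leaving out all snoRNAs, summed to 653 and 650 unscaled CPM in WT and to 902 and 1450 unscaled CPM in KO2. These sums were also higher in both KO2 libraries, with replicate 2 the highest. Gene by gene the order of the KO2 libraries was mixed, since replicate 1 was the higher in 18 of 38 such genes tested (median log2 ratio -0.11). The 8 short small nuclear RNAs among them resembled the snoRNAs, with KO2 replicate 1 above replicate 2 in all 8 (median log2 ratio 0.92) and 3 called, all as higher in KO2. The 6 short microRNAs had a median log2 ratio of -2.12. Of the 38 genes, 6 were called as higher and 2 as lower in KO2, with a median log2 fold change of 0.63. Mitochondrial transfer RNAs, which lie in this set, summed to 228 and 236 unscaled CPM in WT and to 319 and 343 unscaled CPM in KO2. The ERCC spike-ins, synthetic RNAs added to the samples, came to 889 and 732 unscaled CPM in WT and 940 and 695 unscaled CPM in KO2. Reads left out as ambiguous came to 8.87 and 6.38 per 100 counts on genes in WT and to 4.42 and 9.65 in KO2, so KO2 replicate 1 had the fewest. The part of these differences in the snoRNA values was not tested.

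Gene by gene, 7 of the 40 tested snoRNA and scaRNA genes passed an adjusted p of 0.05, and all 7 were C/D genes that were higher in KO2. Over all 12883 tested genes, 5.64% were called, 2.6% as higher and 3.04% as lower in KO2. An unadjusted p under 0.05 (edgeR) was found for 19 of the 40 genes, against 2499 of all 12883 tested genes. The median log2 fold change of the 40 genes was 0.59, with 30 above and 10 below 0, against a median of 0.01 for all tested genes. Both KO2 libraries lay above both WT libraries in 20 of the 40 genes and below them in 3, compared to 25.4% and 23.4% of all tested genes.

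By class, 7 of 23 C/D genes were called, and none of 12 H/ACA and 5 scaRNA genes, of which 1 and 2 had an unadjusted p under 0.05 in edgeR. DESeq2 called 5 genes, all of them C/D and higher in KO2 and without *Snord17* and *Snord32a*, where 1.67% of all genes it tested were called as higher. C/D genes had a median log2 fold change of 0.85, with 21 of 23 above 0 and the KO2 libraries above WT in 15 genes and below it in none. H/ACA genes had a median of -0.23 and ranged from -1.46 to 1.31, and this median became 0.46 without WT replicate 1 and 0.42 without KO2 replicate 2. The scaRNA median was 0.09, with a range of -0.36 to 0.61. H/ACA genes were the least counted, so their median SE of 0.60 was larger than the 0.33 of C/D genes.

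Replicates differed in a directed way. KO2 replicate 1 exceeded KO2 replicate 2 in 37 of the 40 genes, with a median log2 ratio of 0.56 between them, while the same ratio over all tested genes had a median of 0.0025. The WT replicates showed no such shift, since replicate 1 was the higher in 21 of 40 genes. The number of calls moved with these libraries: 4 genes were called without KO2 replicate 1, and 12 without KO2 replicate 2, all as higher in KO2. The latter were the 7 with *Snord11*, *Snord15a*, *Snord35a*, *Snord100* and *Snord118*. The share of all tested genes called as higher was 1.69% and 2.63% in these fits. Leaving out WT replicate 1 or WT replicate 2 gave 4 calls each, again all higher, against 0.844% and 1.53% of all tested genes.

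**Figure D3:**
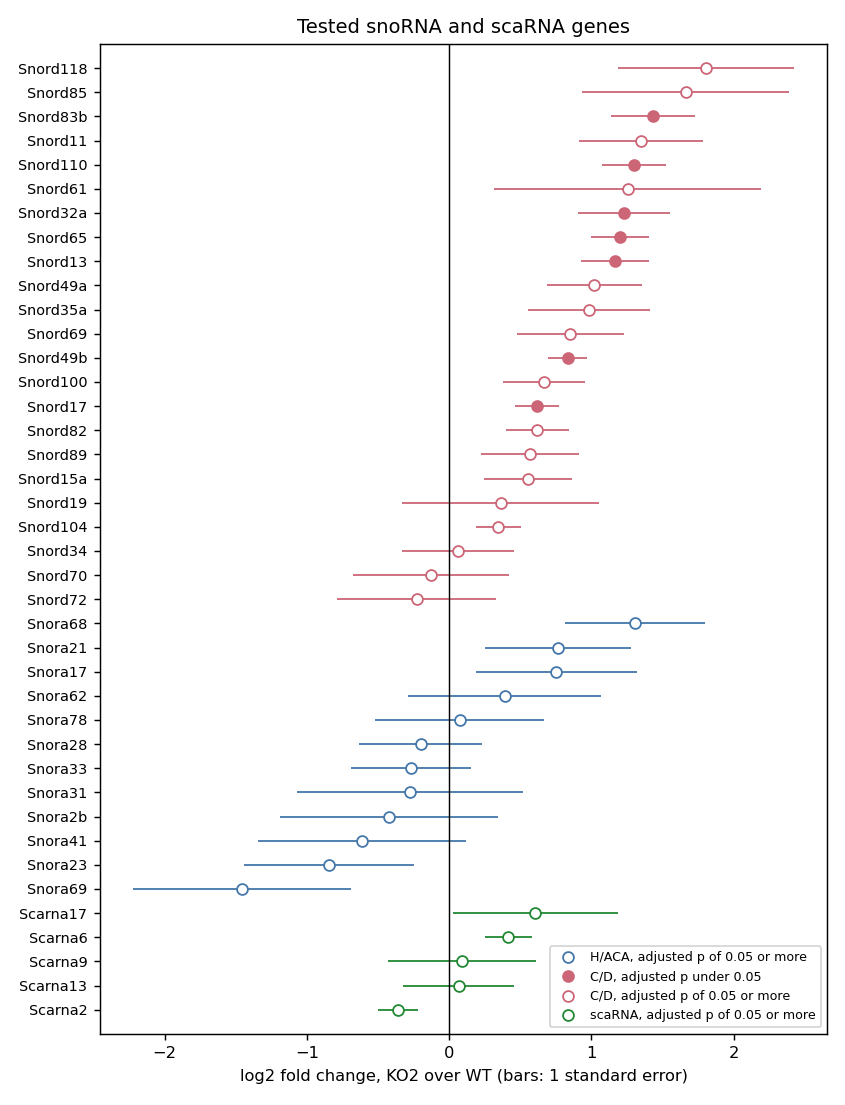
Fitted log2 fold change, KO2 over WT (horizontal axis), with bars of 1 SE for the 40 tested genes, ordered within class. Filled points mark an adjusted p under 0.05 (edgeR quasi-likelihood test with Benjamini-Hochberg adjustment): the 7 filled points are C/D genes between 0.62 and 1.43.

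*Snord49b*, a guide for methylation of 28S rRNA, had the smallest adjusted p. Its levels were 162 and 157 CPM in WT and 327 and 240 CPM in KO2, a log2 fold change of 0.83 (SE 0.14, adjusted p = 0.00095, edgeR quasi-likelihood test). The WT libraries were close together, and both KO2 libraries lay well above them. *Snord65*, a guide for 18S rRNA from the same host, measured 41.0 and 53.4 CPM in WT and 136 and 82.6 CPM in KO2. It was higher by 1.20 on the log2 scale (SE 0.20, adjusted p = 0.0014, edgeR), again without overlap, and lost its call without WT replicate 1. *Snord49a*, the relative of *Snord49b* in that host, was at 10.4 and 8.27 CPM in WT and at 20.8 and 16.4 CPM in KO2. Its log2 fold change of 1.02 (SE 0.33) was of similar size, but with fewer counts it did not pass (adjusted p = 0.081, edgeR).

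*Snord110*, an 18S rRNA guide in an intron of the gene for the C/D core protein NOP56, stood at 19.8 and 18.7 CPM in WT and at 54.3 and 40.0 CPM in KO2. The difference was 1.30 on the log2 scale (SE 0.23, adjusted p = 0.0017, edgeR), and the gap between groups exceeded the spread within either of them. *Snord110* and *Snord49b* were called whichever library was left out. *Snord13*, which assists acetylation of 18S rRNA and is transcribed from its own promoter, had levels of 31.3 and 20.6 CPM in WT and of 68.2 and 45.2 CPM in KO2. It was higher by 1.17 (SE 0.24, adjusted p = 0.0056, edgeR), and lost its call without WT replicate 2.

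*Snord83b* had the largest fold change among the called genes, with 20.9 and 13.9 CPM in WT and 59.7 and 31.4 CPM in KO2. Its log2 fold change was 1.43 (SE 0.30, adjusted p = 0.0062, edgeR), with the higher WT library below the lower KO2 library. Without WT replicate 2 or without KO2 replicate 1 it was not called. *Snord32a*, a guide for ribosomal RNA within *Rpl13a*, measured 10.8 and 13.0 CPM in WT and 36.5 and 20.1 CPM in KO2, a log2 fold change of 1.23 (SE 0.32, adjusted p = 0.030, edgeR). This gene overlaps an exon on its strand, so part of its reads may have been left out, and when libraries were left out in turn it was called only without KO2 replicate 2. DESeq2 did not call it (adjusted p = 0.060).

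*Snord17*, the most counted of all, had levels of 672 and 889 CPM in WT and of 1447 and 955 CPM in KO2. Here KO2 replicate 2 was only just above WT replicate 2. The log2 fold change was 0.62 (SE 0.15, adjusted p = 0.022, edgeR), and the call was lost without WT replicate 1, without KO2 replicate 1 and in DESeq2 (adjusted p = 0.47). It was the smallest fold change among the 7 called genes, although its counts were the deepest.

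**Figure D4:**
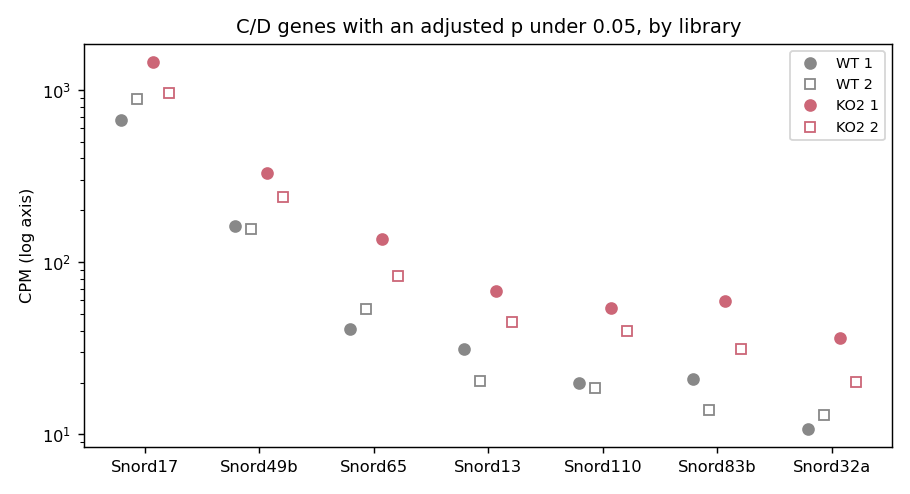
Level in CPM (vertical log axis) of the 7 C/D genes with an adjusted p under 0.05 in each library; grey is WT, red is KO2, filled circles are replicate 1 and open squares replicate 2. For every gene both KO2 points lie above both WT points, narrowly for *Snord17* (889 against 955 CPM), and KO2 replicate 1 lies above KO2 replicate 2.

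Among the C/D genes that did not pass, some had larger fitted changes on fewer counts. *Snord118*, the U8 RNA needed for processing of large-subunit rRNA, had the largest fitted change of the 40 genes, 1.81 on the log2 scale, but rested on 5 and 16 counts in WT against 125 and 39 in KO2. With an SE of 0.62 it did not pass (adjusted p = 0.10, edgeR), but it was called without KO2 replicate 2. *Snord85*, with 2 and 7 counts in WT against 38 and 26 in KO2, had 1.66 (SE 0.73, adjusted p = 0.21, edgeR). The groups were separated in each case, with few counts in WT and a wide error. *Snord85* passed the low-count filter through its KO2 libraries alone. A gene with WT counts this low can enter only when KO2 is high, so its separation is not independent of the filter.

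Abundant C/D genes were not all called. *Snord15a* had levels of 153 and 59.5 CPM in WT and of 207 and 97.4 CPM in KO2. Replicate 1 was more than 2-fold above replicate 2 in both groups, and the groups overlapped. The log2 fold change of 0.55 had an SE of 0.31 (adjusted p = 0.34, edgeR), and was 1.02 without KO2 replicate 2. In a fit with the replicate number as a block *Snord15a* was called (0.57, adjusted p = 0.0026, edgeR). *Snord104* lay at 126 and 90.7 CPM in WT and at 153 and 120 CPM in KO2, also overlapping, with 0.35 (SE 0.16, adjusted p = 0.24, edgeR). Only *Snord70* and *Snord72* had fitted values below 0, -0.12 and -0.23, each with an SE of at least 0.55. *Snord61*, with 6 and 1 counts in WT against 28 and 10 in KO2, was among the 3 genes with the largest difference between replicates and had 1.26 (SE 0.94, adjusted p = 0.51, edgeR).

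Among H/ACA genes, *Snora68* came closest to the C/D pattern. It was at 2.61 and 4.49 CPM in WT and at 10.8 and 7.75 CPM in KO2, which did not overlap, with a log2 fold change of 1.31 (SE 0.49, adjusted p = 0.14, edgeR). *Snora28* lay at 7.83 and 10.6 CPM in WT and at 11.0 and 5.35 CPM in KO2, so the KO2 libraries stood on both sides of WT. *Snora33* was at 8.94 and 7.56 CPM in WT and at 7.61 and 5.88 CPM in KO2. For these genes the log2 fold changes were -0.20 (SE 0.43) and -0.27 (SE 0.42). *Snora21* (0.77, SE 0.52), *Snora17* (0.75, SE 0.56) and *Snora78* (0.07, SE 0.60) were likewise not called, and *Snora17* overlaps an exon on its strand. *Snora21* and *Snora41* have a near-identical copy elsewhere in the genome, to which part of their reads could map, so their values are uncertain. *Snora69* had the lowest fitted value, -1.46 (SE 0.76), from 8 and 12 counts in WT against 12 and 4 in KO2. *Snora41* had 2 and 19 counts in WT, one of the widest replicate differences, and 20 and 10 in KO2.

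The scaRNAs went both ways. *Scarna2* measured 121 and 142 CPM in WT and 112 and 93.6 CPM in KO2, below WT in both libraries, with -0.36 (SE 0.14, adjusted p = 0.16, edgeR). *Scarna6* measured 49.9 and 67.8 CPM in WT and 79.5 and 79.3 CPM in KO2, above WT in both, with 0.42 (SE 0.16, adjusted p = 0.16, edgeR). Neither passed, although both were among the better counted genes. *Scarna13* lay at 21.2 and 11.1 CPM in WT and at 22.6 and 9.62 CPM in KO2, and *Scarna17* at 8.94 and 3.31 CPM in WT and at 12.9 and 4.01 CPM in KO2. In both genes replicate 1 was higher than replicate 2 in WT as well as in KO2, by more than the groups differed. *SCARNA17*, a gene named outside the rule (chr18:74938215-74938354), lies beside *Scarna17* (chr18:74938045-74938123) on the same strand. It was better counted, at 70.1 and 35.7 CPM in WT and 43.5 and 22.5 CPM in KO2. Its fitted value of -0.64 (SE 0.29, adjusted p = 0.23, edgeR) was opposite in sign to the 0.61 (SE 0.58) of *Scarna17*. *Scarna9* was at 4.47 and 4.25 CPM in WT and at 4.69 and 4.54 CPM in KO2, with 0.09 (SE 0.52).

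Class and length are linked, since most C/D genes are shorter than H/ACA genes. The 13 tested genes shorter than 80 bases had a median log2 fold change of 0.67 and 3 calls, and the 9 genes from 80 to under 120 bases had 0.98 and 3 calls. The 14 genes from 120 to under 200 bases, 12 of them H/ACA, had a median of -0.06 and no call. Of the 4 longer genes only *Snord17*, with 238 bases, was called. The rank correlation of fold change with length was -0.34 over the 40 genes and 0.07 over the 23 C/D genes, and that with GC content was 0.21 and 0.18. These genes share libraries and, in part, hosts, so the values only describe them. With so few C/D genes above 120 bases, class and length cannot be told apart here. The H/ACA values rest on 12 genes. The 25 tested H/ACA genes named outside the rule, described at the end, had a median of 0.57, with 23 above 0.

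Host genes were measured in the same libraries through their exons. Of the 40 tested genes, 34 lie inside a host on the same strand, in 27 distinct hosts, of which 24 were tested. Of these, 1 was called, as lower in KO2, compared to 3.04% of all tested genes, and its values are not given. It holds none of the 7 called genes, and the call was lost without WT replicate 1. The median log2 fold change of the 24 hosts was -0.04, with 8 above and 16 below 0.

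No host of a called gene was called. 2410006H16Rik, the host of *Snord49b*, *Snord65* and *Snord49a*, had levels of 45.5 and 35.0 CPM in WT and of 56.3 and 41.8 CPM in KO2, which overlapped (0.31, SE 0.20, adjusted p = 0.44, edgeR). *Nop56* was at 436 and 429 CPM in WT and at 438 and 403 CPM in KO2 (-0.04, SE 0.10). *Rpl3* was at 209 and 256 CPM in WT and at 244 and 216 CPM in KO2 (-0.02, SE 0.12). *Snx5*, which encodes a sorting nexin, was at 869 and 782 CPM in WT and at 820 and 895 CPM in KO2 (0.06, SE 0.10). For these hosts the groups overlapped. *Rpl13a* lay at 149 and 158 CPM in WT and at 124 and 120 CPM in KO2, lower in both KO2 libraries without passing (-0.34, SE 0.12, adjusted p = 0.13, edgeR), while its *Snord32a* was called as higher.

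**Figure D5:**
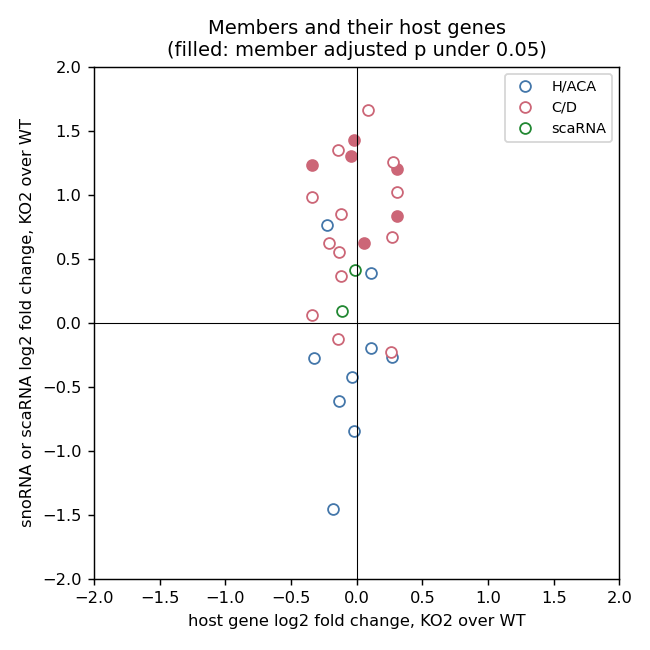
Log2 fold change, KO2 over WT, of each tested snoRNA or scaRNA gene (vertical axis) against that of its host gene (horizontal axis, same scale); filled points are genes with an adjusted p under 0.05. The host that was called is not shown. The others lie between -0.34 and 0.31 and the genes inside them between -1.46 and 1.66.

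Genes of the same host did not always have like values. Within *Rpl13a*, *Snord32a* had 1.23, *Snord35a* 0.98 (SE 0.43) and *Snord34* 0.06 (SE 0.39). Within *Nop58*, which encodes a C/D core protein, *Snord11* had 1.35 (SE 0.44, adjusted p = 0.081, edgeR, called without KO2 replicate 2) and *Snord70* -0.12 (SE 0.55). Within *Rps12*, the C/D gene *Snord100* had 0.67 (SE 0.29) and the H/ACA gene *Snora33* -0.27 (SE 0.42). In *Gnl3*, *Snord69* had 0.85 (SE 0.38) and *Snord19* 0.36 (SE 0.69). The differences between genes of a host were not tested, and *Snord34*, like *Snord32a*, overlaps an exon.

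Other hosts of genes named here were not called either. *Rps3*, the host of *Snord15a*, had a log2 fold change of -0.14 (SE 0.10), *Eif5* 0.11 (SE 0.10), *Rps12* 0.26 (SE 0.25), *Rpl23* -0.23 (SE 0.15, called at -0.52 without WT replicate 2) and *Atg16l1* -0.01 (SE 0.15). *Rbmx* had 0.28, *Eef1b2* -0.14 and 5830418K08Rik -0.11, while *Snhg7* and *Snhg9* were not tested. *Gas5*, a noncoding host of many C/D snoRNAs, was at 291 and 247 CPM in WT and at 216 and 209 CPM in KO2. It had a log2 fold change of -0.34 (SE 0.12, adjusted p = 0.11, edgeR) and no overlap. *Snhg12*, another noncoding host, was at 40.2 and 39.0 CPM in WT and at 24.0 and 27.4 CPM in KO2 (-0.62, SE 0.20, adjusted p = 0.084, edgeR). *Snhg3* had 1, 1, 0 and 3 counts and was not tested, and the others of this list were not analysed here.

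Proteins that build, move or trim these particles were compared as a list of 34 genes, all of which were tested. There were 2 calls, 1 in each direction, a share near the 5.64% of all tested genes that were called. *Znhit3*, which encodes an assembly factor of C/D particles, was at 18.6 and 15.1 CPM in WT and at 31.7 and 28.7 CPM in KO2, higher by 0.86 (SE 0.25, adjusted p = 0.048, edgeR). *Ncbp1*, which encodes the large subunit of the nuclear cap-binding complex, was at 163 and 187 CPM in WT and at 131 and 123 CPM in KO2, with a log2 fold change of -0.47 (SE 0.13, adjusted p = 0.035, edgeR). The groups did not overlap for either gene, but neither call held when any of the 4 libraries was left out.

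The catalytic and core proteins did not pass the test. *Fbl*, which encodes fibrillarin, had 79.4 and 54.1 CPM in WT and 54.7 and 35.6 CPM in KO2, an overlap of WT replicate 2 with KO2 replicate 1, and a fitted value of -0.55 (SE 0.21, adjusted p = 0.16, edgeR). *Dkc1*, which encodes dyskerin, had 448 and 382 CPM in WT and 320 and 349 CPM in KO2 (-0.31, SE 0.11, adjusted p = 0.13, edgeR). The 6 H/ACA core and assembly genes had a median log2 fold change of -0.12, the 11 for C/D particles 0.03, the 9 for Cajal bodies, caps and transport 0.07, and the 8 for RNA ends and turnover -0.19. Over the whole list the median was -0.04, with both KO2 libraries above WT in 3 genes and below it in 12.

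The calls and the size of the differences also depended on what the libraries were scaled to. Scaled to the ERCC spike-ins, 3 of the 7 genes were called, *Snord110*, *Snord65* and *Snord83b*, all as higher in KO2, as were 0.699% of all tested genes. The fitted C/D median did not shrink with this scaling, at 0.93 against 0.85 in the main fit. The median of all tested genes was 0.09, against 0.01 in the main fit. The log2 ratios of summed counts were smaller than those relative to counts on genes. They were 0.75 against 0.80 for C/D, 0.14 against 0.19 for H/ACA and 0.05 against 0.08 for scaRNA. A further scaling used the summed counts of all 102 snoRNA and scaRNA genes, most of them C/D counts (21610 of 24025 in KO2 replicate 1). By construction it takes out a change that these genes share, so it only describes each gene relative to that sum. Under it none of these genes was called in edgeR and 3 had an unadjusted p under 0.05. Of all tested genes, 0.132% were called as higher. The C/D median then was 0.28 and the H/ACA median -0.83, while the median of all genes moved to -0.55.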

How the data were processed

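RNA was isolated with an RNeasy Mini column kit, depleted of rRNA, fragmented to about 200 bases and made into strand-specific libraries. All but 4 of the 40 tested genes are shorter than 200 bases. How much RNA of this size was kept was not tested. The levels given here, and their order among genes and classes, therefore need not be those in the cells. Raw counts per gene were deposited for each library by the authors, from HTSeq on HISAT2 alignments to mm9. Versions, annotation and strand setting of the counting are not given in the sources used here. Symbols, coordinates and hosts came from GENCODE vM1 on NCBIM37. Counts on an intronic snoRNA can also come from unspliced host RNA. Rows that name no gene stayed out of the library sizes.

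Counts were normalised by TMM and tested in edgeR 4.0.16 (R 4.3.3) by its quasi-likelihood test (glmQLFit, glmQLFTest) of KO2 against WT, with no covariate, after filterByExpr (minimum count 10, minimum total 15). P-values were adjusted by Benjamini-Hochberg over 12883 genes, with a threshold of 0.05. Replicates are biological by label, and origin from separate cultures is not stated. Members and lists were chosen with earlier results of these data known. Named genes were those called, the 6 most abundant tested genes of each class, the 3 most variable between replicates, their hosts, called proteins of the list, noncoding hosts and *Zfp296*. A few further genes were named after their values were seen, to show ranges, shared hosts and core proteins. The fits were tested on simulated counts. Values of 1 host and some sequences are not reported here.

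Alternatives were RLE, ERCC and own-count scaling, TMM without Y-linked, mitochondrial and short genes, 2 other filters, DESeq2 1.42.0, the older quasi-likelihood method, a replicate block, thinning, a wider naming rule, sums without the most abundant gene, and leaving out each library. Leaving out genes with an exon overlap or copy was added after seeing the data.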

Additional observations from a re-analysis of the deposited data

How the results depend on the processing

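Called genes kept a positive sign under every alternative run. The number of calls (7) was 7 under RLE, TMM without Y-linked, mitochondrial and short genes, the 10-count filter, the older method and thinning, 5 under DESeq2, 3 under ERCC scaling, 0 under own-count scaling and 0 of 59 without a filter (15 at an unadjusted p under 0.05), where 61 of 25397 genes were called in all and the gene median moved to 0.12. The cause was not tested. The share of all tested genes called as higher was 2.6% in the main fit and 2.81% under RLE. It was 2.63% under TMM without those genes, 3.31% with the 10-count filter, 2.48% under the older method and 2.05% after thinning. The wider naming rule gave 12 calls, genes without exon overlap or copy 6 of 35, and leaving out a library 4 to 12. With the replicate number as a block there were 10 calls, all higher in KO2, as were 3.65% of all tested genes. These 10 held all 7 and added *Snord11*, *Snord118* and *Snord15a* (0.57, adjusted p = 0.0026, edgeR). The labels give the groups the same numbers, and whether same-numbered libraries were prepared together is not stated. Deviations of same-numbered libraries correlated at -0.0066 over 12883 genes, and no pairing was used in the main fit. A correlation over all genes cannot tell whether some of them, such as short ones, deviate together.

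The H/ACA median of -0.23 (12 genes) moved to -0.83 under own-count scaling (12 genes), 0.51 after thinning (6 genes) and 0.34 under the wider rule (37 genes). It ranged from -0.46 to 0.46 over the leave-outs (11 to 14 genes). The C/D median (23 genes) moved to 0.28 under own-count scaling (23 genes) and 0.65 without a filter (33 genes). It ranged from 0.43 to 1.05 over the leave-outs (23 to 28 genes). Where the number of genes differs, the medians cover unlike sets, so part of a move can come from which genes were tested. The log2 ratio of summed counts ranged from -0.24 to 0.52 for H/ACA and from 0.42 to 1.10 for C/D over the leave-outs, and was 0.47 for scaRNA without *Scarna2*. Calls in the protein list (2) were 0 under ERCC scaling and without a filter, 1 under DESeq2 and 1 under the older method, and 0 to 1 over the leave-outs. Host calls (1) were 0 under ERCC scaling, without a filter, under DESeq2 and under the older method, and 0 to 3 over the leave-outs.

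Fitted values of some named genes changed sign, in no case with a call. Under own-count scaling, which moved the median of all genes to -0.55, these were *Snora78* (-0.52), *Snord15a* (-0.059), *Snord104* (-0.22), *Scarna6* (-0.15), *Scarna13* (-0.53), *Scarna9* (-0.50), *Eif5* (-0.43), *Snx5* (-0.48), *Rbmx* (-0.29), *Rps12* (-0.31) and 2410006H16Rik (-0.27). Under ERCC scaling they were *Atg16l1* (0.088), *Nop56* (0.048) and *Rpl3* (0.050), and after thinning *Scarna13* (-0.10), *Scarna9* (-0.38) and *Atg16l1* (0.057). *Atg16l1* was at 0.018 and *Rpl3* at 0.011 without a filter, and they were at 0.0071 and 0.0076 with the 10-count filter. *Snora78* was at -0.015 in DESeq2, and with the replicate block *Snora78* was at -0.092 and *Scarna13* at -0.048. Over the leave-outs, values ranged from -0.82 to 0.21 for *Snora28*, -0.86 to 0.63 for *Snora78*, -0.065 to 1.36 for *Snord15a*, -0.66 to 0.56 for *Scarna13*, -0.46 to 1.36 for *Scarna17*, -1.20 to 1.36 for *Snora41*, -0.14 to 0.11 for *Atg16l1*, -0.098 to 0.014 for *Nop56*, -0.020 to 0.13 for *Snx5*, -0.15 to 0.14 for *Rpl3* and -0.52 to 0.12 for *Rpl23*.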

Other observations

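Genes named outside the rule, in upper case or by accession, include further snoRNAs of the mm9 annotation. Of 1123 such genes in the count files, 53 were tested and 5 were called, all higher in KO2, as were 2.6% of all tested genes. *SNORD5* (log2 fold change 0.95, SE 0.19, adjusted p = 0.0041, edgeR) had levels of 28.0 and 37.3 CPM in WT and of 67.6 and 60.8 CPM in KO2. *SNORD73* (0.88, SE 0.18, adjusted p = 0.0058, edgeR) had 33.5 and 45.1 CPM in WT and 78.5 and 67.8 CPM in KO2. *SNORD38* (1.72, SE 0.38, adjusted p = 0.0094, edgeR) had 8.20 and 11.1 CPM in WT and 45.7 and 19.5 CPM in KO2. In all of these genes both KO2 libraries lay above both WT libraries. The 16 tested C/D genes among them had a median log2 fold change of 0.64 with 4 calls. The 25 tested H/ACA genes had 0.57 with no call and 23 above 0, unlike the -0.23 of the 12 H/ACA genes described above. Both H/ACA sets were sparse, with median levels of 3.91 and 3.96 CPM and median SEs of 0.61 and 0.60. Of all 53 genes, 44 had fitted values above 0 and 9 below. The 4 tested scaRNA genes had a median of -0.15, with 2 above and 2 below 0 and no call. Among them *SCARNA21* was lower in KO2 (-1.86, SE 0.57, adjusted p = 0.065, edgeR). Its levels were 5.96 and 6.38 CPM in WT and 1.65 and 1.74 CPM in KO2. A gene can pass the filter through 1 group alone: *SNORA2* had 2 and 4 counts in WT against 23 and 23 in KO2. KO2 replicate 1 exceeded KO2 replicate 2 in 39 of the 53 genes. These genes were named after their values were seen.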
